A study of Mus musculus with 12 samples.

Results

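Murine neuroblastoma tumors treated with high intensity focused ultrasound (HIFU) and labelled 48 h were compared with untreated tumors. The 3 arrays titled for HIFU at 48 h were set against the 3 arrays titled as control tumors, over all 22206 probe sets, so that 6 of the 12 arrays of the series were compared. All tumors had been raised from neuroblastoma cells inoculated into A/J mice, an inbred strain, and all were kept as frozen tissue. The control tumors received no HIFU, and the treated tumors received HIFU in the mode that the series calls mechanical fractionation, in which focused sound breaks tissue up. Reading 48 h as the time between HIFU and sampling is an assumption, since the labels give it both as a time point and as a duration. The labels mention no immune deficiency of the host mice, and the line of the inoculated cells is not given in the sources used here. The labels do not tie each tumor to its own mouse. If tumors shared a mouse they would not be independent, and the p-values would not measure variation between mice.

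Neuroblastoma is a tumor of the sympathetic nervous lineage, and its cells carry the enzymes and secretory granules of catecholamine-producing neurons. Injured tissue draws in neutrophils first and monocytes soon after, and both release proteins that bind metals, degrade matrix and clear debris. Interferons, signals of viral and immune alarm, switch on antiviral genes, guanylate-binding GTPases and the machinery that presents peptides on MHC class I, largely through promoter elements bound by STAT and IRF factors.

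The labelled tissue was checked against genes of its lineage. On all 6 arrays Dbh, which makes noradrenaline, had a higher signal than at least 91.8% of that array's probe sets, the granule protein Chgb than at least 95.9% and the receptor tyrosine kinase Ret than at least 96.4%. Th, the first enzyme of catecholamine synthesis, was above 85.3% to 96.5% of probe sets. Ddc, the next enzyme of that pathway, stood near the middle of the range, above 43.2% to 61.1%. Not every lineage gene ranked high, as the lowest of those ranked was above 32.1% to 52.1% of probe sets. Mycn was above 50.2% to 64.2%, while Stmn2 was above 93.9% to 99.2%. Array medians were between 5.43 and 5.55 on the log2 scale. Control arrays correlated with each other at r between 0.975 and 0.991 over probe sets, arrays at 48 h at 0.968 to 0.983, and arrays of different groups at 0.944 to 0.986.

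Skeletal muscle transcripts were present in all 6 tumors and in unequal amounts. The mean log2 signal over 22 sarcomere genes was 9.41, 9.97 and 12.47 in control replicates 1 to 3 and 13.90, 14.58 and 13.17 in the 48 h replicates. Control replicate 3 thus lay nearer to the treated tumors than to the other controls. The part of muscle tissue in the results that follow was not tested beyond a fit with this mean as a covariate. Of the 88 named genes outside the sarcomere list, 41 had a difference smaller by more than 1.5 times in that fit, 7 a larger one by as much and 5 the opposite direction. Values from it are given below for the gene lists that it moved by that much and for examples among the genes. Because the groups did not overlap in this mean, the covariate and the treatment are only partly separable. In whole-tissue RNA, fewer cells of a type and less RNA per cell cannot be told apart.

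At 48 h, 1 of 22206 probe sets (0.0045%) rose past an adjusted p of 0.05 and 0 fell (limma, Benjamini-Hochberg over all probe sets). At an unadjusted p under 0.05, 1177 probe sets were higher (5.3%) and 1779 lower (8.01%). All 3 treated arrays lay above all 3 controls for 10.3% of probe sets and below them for 11.7%, and the median difference over all probe sets was 0.01. Differences were above 0 for 51% of probe sets and below 0 for 48.8%. These shares are the background for the counts given below for groups of genes. Differences are log2 signal at 48 h minus log2 signal in controls, with the limma standard error (SE). Apart from Lcn2, no gene named below passed the threshold, and adjusted p-values of the named genes that did not pass were 0.188 or higher.

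**Figure D1:**
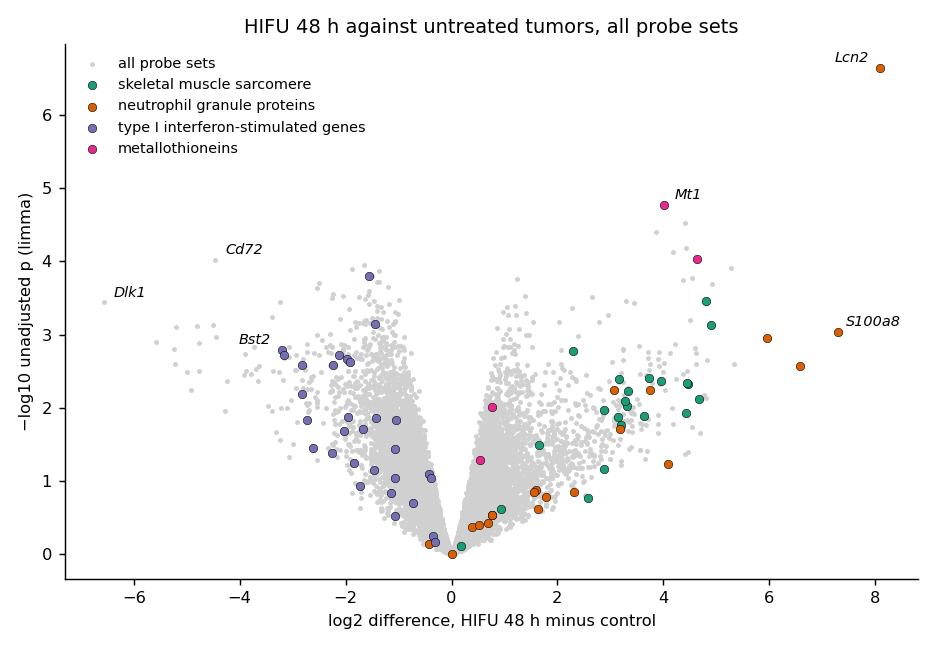
Each point is 1 probe set, placed by its log2 difference at 48 h (horizontal axis) and by −log10 of its unadjusted limma p (vertical axis), with members of 4 gene lists in colour. Lcn2 stands alone at the upper right, all 22 sarcomere and 19 of 20 granule genes lie to the right of 0, and the 30 interferon-stimulated genes lie to its left.

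The gene that rose was Lcn2 (probe set TC0200003303.mm.2), which encodes lipocalin 2, a protein of neutrophil granules and of the acute phase that captures bacterial iron carriers. Its log2 signal was 6.45, 6.53 and 8.09 in the controls and 14.29, 15.76 and 15.28 at 48 h. The lowest treated tumor was far above the highest control, and the gap between groups was larger than the range within either. The difference was 8.09 ± 0.74 SE (limma, adjusted p = 0.00512), a fold of 272. The call ended when control replicate 1 (limma, adjusted p = 0.0578), control replicate 2 (0.0652), 48 h replicate 2 (0.0543) or 48 h replicate 3 (0.0651) was left out. It also ended with the muscle covariate (difference 6.39, limma, adjusted p = 0.107) and with a block for replicate number (limma, adjusted p = 0.0683). The difference itself stayed between 7.76 and 8.62 whichever of the 12 arrays was left out. In tumors sampled at the other times, which are compared with the same controls, Lcn2 averaged 14.49 at 24 h and 17.44 at 72 h.

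The promoter of Lcn2 is shown because the gene is the only call. In the RefSeq window of 250 bases before and 50 after its start (assembly GRCm38.p6), the C/EBP core TTNNGNAA, read on both strands, was found, and the kappa B sequence GGAAATNCC was not. Only this 1 form of the kappa B sequence was searched, so its absence does not show that the window lacks other forms. Of 15691 genes with such a window, 41.0% held the C/EBP core and 1.45% the kappa B sequence searched. The stretch around the match lies at chr2:32387910-32387989 on the minus strand and is written 5′ to 3′, with the C/EBP core match in capitals.
Lcn2: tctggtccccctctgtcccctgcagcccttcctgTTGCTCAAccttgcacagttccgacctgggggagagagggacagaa
A match is a description of letters and shows neither binding nor use of the site.

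Other neutrophil genes split into those high in all 3 treated tumors and those high in 1. Of 20 measured genes of granule proteins, 1 rose past the threshold (Lcn2), 19 were higher and 9 had all 3 treated arrays above all controls, with a median difference of 1.70. S100a8, a subunit of the alarmin calprotectin, gave 2.54, 3.26 and 2.75 in controls and 7.49, 10.16 and 12.80 at 48 h, a difference of 7.30 ± 1.65 SE (limma, adjusted p = 0.202). Its partner S100a9 gave 5.18, 4.46 and 5.10 against 8.16, 11.54 and 12.91. Retnlg, a secreted resistin-like protein of granulocytes, gave 5.21, 3.30 and 3.93 against 7.09, 13.54 and 11.55. All 3 genes were lowest at 48 h in replicate 1, and even there each lay above every control.

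Another set was by far highest in replicate 3. Ngp, a granule protein of immature neutrophils, measured 3.43, 4.79 and 13.25 in 48 h replicates 1 to 3, with controls between 3.02 and 3.13. Mpo, the peroxidase of the primary granules formed early in the marrow, measured 3.61, 3.51 and 10.49, with controls between 3.54 and 3.56. Elane, the elastase of the same granules, measured 4.31, 3.98 and 9.01, with controls between 3.60 and 4.33. For Mpo and Elane, replicates 1 and 2 were at or close to the control level, so their mean differences of 2.32 and 1.78 describe a single tumor. Replicate 3 was also the highest in erythroid genes, where the list median stood 2.12 above the control mean against 0.33 and 0.55 in replicates 1 and 2. Car1, a carbonic anhydrase of red cells, measured 4, 4.44 and 8.32 at 48 h, with controls between 3.52 and 4.04. Without replicate 3 the median difference of the granule list was 0.74 and that of the erythroid list 0.47, compared with 1.70 and 1.02 with it. The list medians were 0.69 and 0.12 with the muscle covariate.

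Receptors of mature neutrophils followed another tumor. Cxcr2, the receptor for neutrophil-attracting chemokines, measured 5.67, 9.90 and 6.43 at 48 h and 5.06, 4.84 and 4.29 in controls. Clec4d, a lectin receptor of myeloid cells, measured 7.10, 10.73 and 4.92 against 4.70, 4.18 and 4.24. Both peaked in replicate 2. Of 12 receptor genes, 11 were higher, 5 had separate arrays and 0 passed, with a median difference of 1.55, which was 0.71 without replicate 2 and 0.12 with the muscle covariate. In that fit Cxcr2 differed by 0.35 and Clec4d by 0.22, instead of 2.60 and 3.21. Among the attractants, Cxcl2 measured 9.49, 13.17 and 5.03 at 48 h, with controls between 4.17 and 5.24, so that it was high in 2 of the 3 treated tumors. Cxcl1, a close relative, measured 4.61, 4.75 and 4.17, all below or within the control range of 4.20 to 5.48. Csf3, the growth factor for granulocytes, lay between 3.15 and 3.58, against 3.46 to 3.82 in controls.

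**Figure D2:**
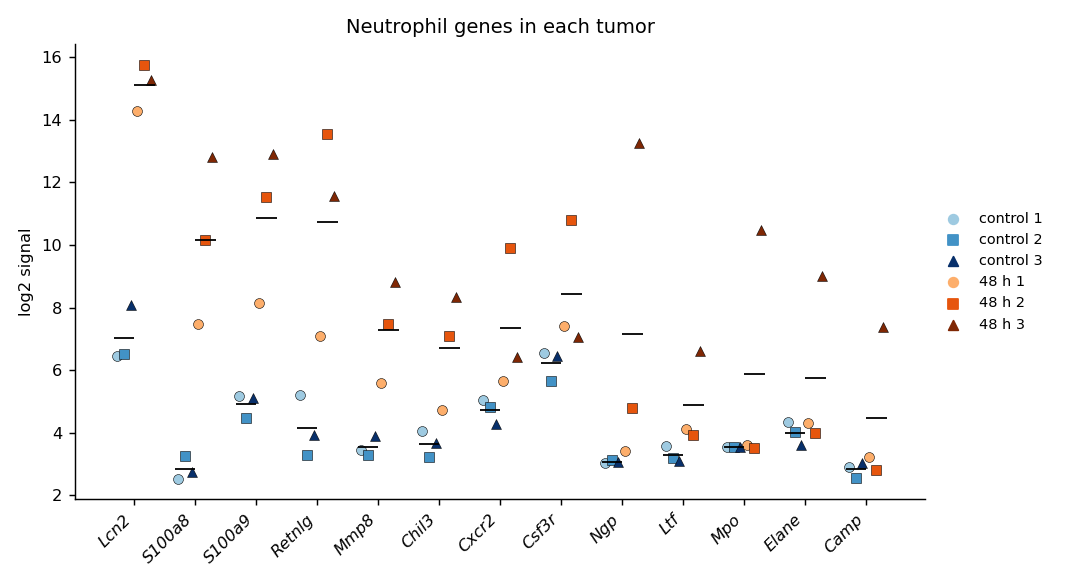
Log2 signals of 13 neutrophil genes in 3 control tumors (blue) and 3 tumors at 48 h (orange to brown), 1 point per array, with group means as bars. Lcn2 through Chil3 are above every control in all 3 treated tumors, whereas Mpo, Elane and Camp are high only in 48 h replicate 3 (Mpo at 10.49 against 3.61 and 3.51).

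Several acute phase and metal-binding genes were higher in every treated tumor. Serpina3n, an inhibitor of serine proteases, measured 8.77, 7.77 and 8.28 in controls and 12.39, 14.79 and 12.13 at 48 h, a difference of 4.83 ± 0.95 SE. Hp, which encodes the haemoglobin-binding haptoglobin, measured 6.66, 7.81 and 9.83 against 11.30, 14.58 and 11.12, a difference of 4.23. With the muscle covariate Serpina3n differed by 3.09 and Hp by 1.21. Of 17 acute phase genes 12 were higher, 7 had separate arrays upward, 1 downward, and 1 passed, which was Lcn2. The serum amyloid gene Saa1 differed by 0.58, and the fibrinogen chains Fga, Fgb and Fgg by -0.33, -0.11 and -0.17. The higher members were thus a part of the list and not the whole, and its median of 0.65 was -0.07 with the muscle covariate and 1.22 without 48 h replicate 1.

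All 4 metallothioneins, small proteins that bind zinc and copper, had treated arrays above every control. Mt1 measured 14.70, 14.04 and 14.36 in controls and 17.97, 19.18 and 18.00 at 48 h, and Mt2 measured 12.98, 12.09 and 13.63 against 16.85, 18.53 and 17.22. The groups were well apart for both, and the adjusted p-values were 0.188 and 0.199 (limma). Mt3 and Mt4, which are mainly found in brain and stratified epithelium, differed by 0.77 and 0.53 at signals under 5.2. Zinc, glucocorticoids and inflammatory cytokines are known inducers of Mt1 and Mt2. Of 17 known glucocorticoid targets, a list that holds Lcn2, Mt1 and Mt2 as well, 13 were higher and 9 had separate arrays, with a median of 1.44. Tsc22d3, whose product GILZ mediates anti-inflammatory effects of glucocorticoids, measured 8.56, 8.71 and 8.72 in controls and 11.28, 10.67 and 11.03 at 48 h. In contrast, Per1, a clock gene that glucocorticoids also induce, measured 7.69, 7.32 and 6.59 against 5.66, 6.10 and 6.93. With the muscle covariate the median of the glucocorticoid list was 0.18, and Tsc22d3 differed by 1.08 instead of 2.33.

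Genes of skeletal muscle differed in 2 ways. Among structural genes control replicate 3 lay between the other controls and the treated tumors. For Trim63, Fbxo32 and Pdk4, genes of the atrophy and fasting response, the 3 controls lay closer together. Ttn, the giant spring protein titin, measured 7.80, 8.45 and 10.30 in controls and 14.32, 14.43 and 12.52 at 48 h. Myh4, the fastest myosin heavy chain, measured 11.98, 15.42 and 17.95 against 19.20, 19.51 and 18.50. The last control lay within 1 log2 unit of the lowest treated tumor for Myh4, and the treated signals approached the highest value found on any of the 12 arrays, 19.93. All 22 sarcomere genes were higher, 19 with separate arrays, and the median difference was 3.30. The slow-fiber genes Tnni1 and Myh7 differed by only 0.19 and 0.93, with overlapping groups.

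The ubiquitin ligases that mark muscle protein for degradation showed a cleaner separation. Trim63 (MuRF1) measured 6.25, 6.72 and 7.16 in controls and 11.85, 11.09 and 13 at 48 h, and Fbxo32 (atrogin-1) measured 6.47, 6.90 and 6.66 against 11.60, 9.75 and 11.96. Pdk4, a kinase that spares glucose in fasted or stressed muscle, measured 8.39, 8.08 and 7.88 against 12.43, 11.25 and 13.89. Control replicate 3, which had the highest sarcomere mean of the controls, was the highest control for Trim63, the middle for Fbxo32 and the lowest for Pdk4. The part of muscle content in these differences was not tested beyond the covariate fit. With the sarcomere mean as a covariate, Trim63 differed by 3.36, Fbxo32 by 3.28 and Pdk4 by 4.02, each with an adjusted p of 0.989 (limma). Of 18 genes of the atrophy and fasting response, 16 were higher, 10 with separate arrays, with a median of 1.16, and 0 passed. Relative to the control mean, the list median was -0.18, -0.10 and 0.30 in the controls and 0.85, 1.45 and 0.71 at 48 h. Over the whole list control replicate 3 thus lay between the other controls and the treated tumors. The list median with the covariate was 0.04.

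Interferon-stimulated genes were lower at 48 h. All 30 measured members had negative differences, 21 had all 3 treated arrays below all controls, against 11.7% of all probe sets, and the median was -1.70. Bst2, or tetherin, which holds budding viruses at the cell surface, measured 16.27, 16.02 and 13.05 in controls and 11.92, 11.07 and 12.74 at 48 h, a difference of -3.20 ± 0.78 SE (limma, adjusted p = 0.202). Control replicate 3 was close to the treated tumors for this gene, and the difference was -1.75 with the muscle covariate. Ifit1, which binds viral RNA caps, measured 8.26, 7.60 and 5.41 against 3.74, 4.38 and 4.69, and Isg15, a ubiquitin-like modifier, measured 6.97, 6.80 and 4.89 against 3.52, 4.81 and 4.46. Irf7, the factor that amplifies interferon production, measured 9.76, 8.93 and 7.92 against 5.38, 7.51 and 5.85. For Ifit1, Isg15 and Irf7 control replicate 3 was the lowest control, and every treated array lay below it. Differences in the list ranged from -3.20 to -0.30.

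The medians of this list relative to the control mean were 0.76, 0.09 and -0.86 in the controls and -2.16, -1.27 and -1.62 at 48 h, which did not overlap. The list median stayed between -2.12 and -1.40 when any of the 12 arrays was left out, and was -1.93 with the muscle covariate. Without control replicate 3, 8 of the 30 members passed as lower (limma, adjusted p under 0.05), where 1.17% of all probe sets passed as lower and 0.234% as higher. Bst2 was among the 8, at -4.24 (limma, adjusted p = 0.00569). Leaving out control replicate 1 or control replicate 2 instead left 0 probe sets past the threshold. Bst2 was then at -2.625 and -2.75 (limma, adjusted p = 0.73 and 0.601). With arrays weighted by their estimated precision, 15 of the 30 passed as lower, where 2.85% of all probe sets passed as lower and 1.41% as higher. These weights were estimated from the same arrays. Control replicate 2 had a weight of 4.19, against 1.25 and 0.72 for control replicates 1 and 3.

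The GTPases that guard against intracellular pathogens were also lower on average, with more overlap between the groups. Of 11 measured members, 11 had negative differences, 2 had separate arrays, and the median was -1.83. Tgtp2 measured 14.33, 12.56 and 10.83 in controls and 6.38, 9.87 and 11.50 at 48 h, and Irgm1, a regulator of the family, measured 11.94, 10.85 and 10.40 against 7.71, 9.43 and 10. Replicate 1 was the lowest of the treated tumors for both. Its list median was -3.61 relative to the control mean, against -1.41 and -0.99 in replicates 2 and 3 and -0.997 in control replicate 3. Without 48 h replicate 1 the list median was -1.10.

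The element that interferon factors bind is shown for members of these lists because it is the element these genes are known for. The core of the interferon-stimulated response element (ISRE), searched as GAAA, any 2 bases and GAAA again on both strands, was found in 3.94% of the 15691 promoter windows. It was present in 10 of 20 interferon-stimulated genes with a window (50%), in 7 of 7 GTPase genes (100%), in 4 of 13 MHC class I genes (30.8%) and in 1 of 5 immunoproteasome genes (20%). The element TTCNNNGAA of the interferon-gamma pathway, called GAS, was found in 9.02% of all windows and in 5, 4, 1 and 1 of the genes of these lists. These lists were written from known interferon genes, so the shares are a description of the lists. The windows below are RefSeq sequence of GRCm38.p6, written 5′ to 3′ on the gene's strand, with every ISRE core match in capitals, overlapping matches joined, and matches on the opposite strand reading TTTC, any 2 bases and TTTC. They are those of the 4 interferon-stimulated genes, 3 GTPases and 1 MHC class I gene with a match and the lowest p, and lie at chr8:71537555-71537634 (Bst2, minus), chr5:120907526-120907577 (Oas1a, minus), chr19:34640759-34640838 (Ifit1, plus), chr4:156200846-156200925 (Isg15, minus), chr3:142559967-142560043 (Gbp3, plus), chr11:48871421-48871482 (Irgm1, minus), chr11:58214878-58214957 (Irgm2, plus) and chr13:74639814-74639893 (Erap1, plus).
Bst2: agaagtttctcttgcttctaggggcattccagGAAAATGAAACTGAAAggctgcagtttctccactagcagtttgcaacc
Oas1a: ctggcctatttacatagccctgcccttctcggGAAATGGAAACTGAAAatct
Ifit1: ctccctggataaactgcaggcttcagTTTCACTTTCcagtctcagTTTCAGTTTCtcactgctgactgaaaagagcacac
Isg15: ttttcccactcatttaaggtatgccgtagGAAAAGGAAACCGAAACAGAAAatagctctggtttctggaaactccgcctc
Gbp3: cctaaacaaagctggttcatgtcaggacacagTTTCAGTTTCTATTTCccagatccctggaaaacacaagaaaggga
Irgm1: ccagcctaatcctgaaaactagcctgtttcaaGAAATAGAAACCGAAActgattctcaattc
Irgm2: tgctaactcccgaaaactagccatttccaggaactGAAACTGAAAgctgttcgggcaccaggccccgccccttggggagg
Erap1: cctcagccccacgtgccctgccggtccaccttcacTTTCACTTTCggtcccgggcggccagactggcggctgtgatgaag
Of these 8 genes, the treated arrays were separate from the controls for Bst2, Oas1a, Ifit1, Isg15, Gbp3 and Irgm1 and overlapped them for Irgm2 and Erap1. Xaf1, an interferon-induced partner of an apoptosis inhibitor, has no ISRE core in its window, and measured 11.19, 10.43 and 7.61 against 5.39, 7 and 7.36, a difference of -3.16 ± 0.79 SE.

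**Figure D3:**
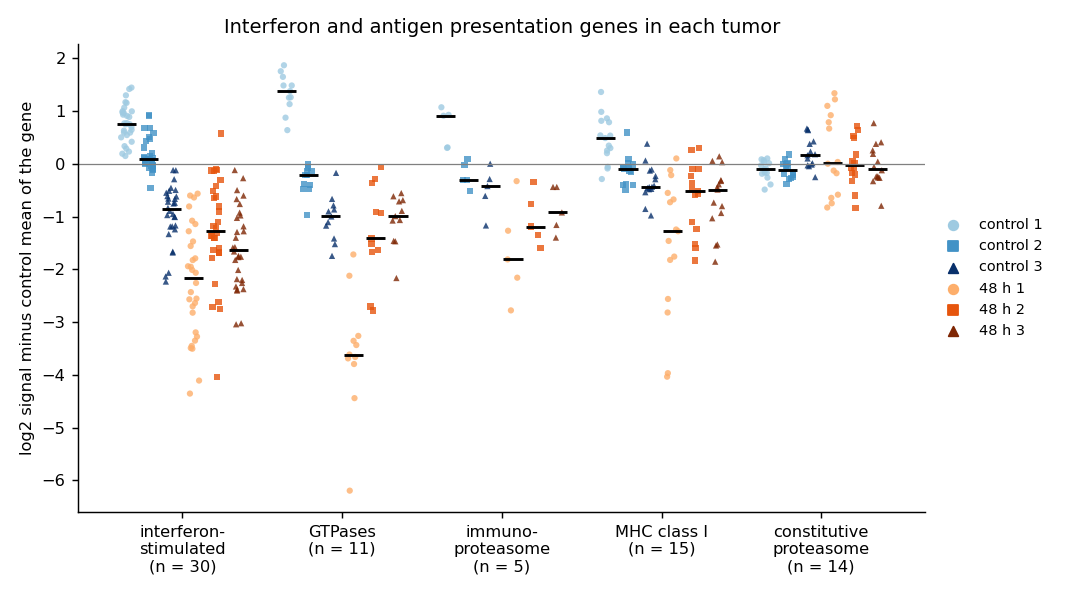
Each point is 1 gene on 1 array, as its log2 signal minus its control mean, for 5 gene lists; black bars are list medians per array. Interferon-stimulated genes lie lowest in the 3 tumors at 48 h (medians -2.16, -1.27 and -1.62) and below 0 in control replicate 3 (-0.86), while the medians of the constitutive proteasome subunits stay around 0 on all 6 arrays.

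Genes of peptide presentation were lower as well. All 5 immunoproteasome genes had treated arrays below every control, with a median of -1.36, which was -0.895 without control replicate 1. Psmb9, a catalytic subunit that replaces its constitutive counterpart under interferon, measured 8.33, 7.35 and 6.09 in controls and 4.48, 5.66 and 5.86 at 48 h. The 14 constitutive proteasome genes divided evenly, 7 higher and 7 lower, with a median of -0.01. Of 15 MHC class I genes 14 were lower and 8 had separate arrays, with a median of -0.94. Tap2, a subunit of the peptide transporter, measured 10.53, 9.89 and 9.55 against 7.43, 8.16 and 8.96, and its partner Tap1 measured 12.07, 10.80 and 10.75 against 7.24, 10.11 and 9.68. The heavy chain H2-K1 measured 16.04, 15.67 and 15.51 against 14.28, 15.18 and 14.94. B2m, the shared light chain, was lowest in replicate 1, at 15.93 against 18.39 and 18.36, with controls between 18.60 and 19.00. Without replicate 1 the class I median was -0.39.

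Genes of the interferon-gamma signal itself were divided. Cxcl9 and Cxcl10, chemokines that draw in activated T cells, measured 5.35 and 5.30 in replicate 1, 9.14 and 6.41 in replicate 2 and 10.50 and 7.24 in replicate 3. Controls were between 9.40 and 11.47 for Cxcl9 and between 7.07 and 8.73 for Cxcl10, so replicates 1 and 2 lay below the controls for both genes and replicate 3 within their range. Of the 15 genes of this list 7 were higher and 8 lower, and the median was -0.03, or -0.50 with the muscle covariate. Cd274, the checkpoint ligand PD-L1, measured 6.27, 10.46 and 8.55 at 48 h and 9.90, 8.35 and 8.96 in controls. T cell genes had a median of 0.00 over 13 members with 0 separated either way, or -0.26 with the muscle covariate, and Cd8a measured 3.23, 3.93 and 4.40 against 4.75, 3.73 and 4.53. Among 15 cytotoxic and NK cell genes 12 were lower and 2 had separate arrays, a share near the 11.7% of all probe sets. The NK receptor chain Klrd1 differed by -0.84 ± 0.27 SE at signals under 4.3. The median of this list was -0.44, and -0.15 without control replicate 1.

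Fibroblast and matrix genes were highest in 48 h replicate 2. Of 21 fibroblast and matrix genes 18 were higher, 15 with separate arrays, with a median of 1.62, and 0 passed. Col3a1, a collagen of granulation tissue, measured 8.33, 8.50 and 10.98 in controls and 13.28, 16.66 and 11.48 at 48 h. Relative to the control mean, the list median was 3.49 in replicate 2 against 1.06 and 0.61 in replicates 1 and 3 and 0.55 in control replicate 3. With the muscle covariate the list median was -0.43, and Col3a1 differed by -0.06, so the direction of this list did not hold in that fit. Timp3, an inhibitor of matrix proteases, went the other way, at 8.56, 7.23 and 6.07 in controls against 4.49, 4.91 and 5.14. The upward lean was not particular to matrix genes. Higher were 13 of 13 adipocyte genes (median 1.35), 16 of 16 endothelial (0.62), 11 of 12 pericyte and smooth muscle (0.86) and 16 of 16 skin genes (0.69). Separate arrays upward were found for 7, 4, 4 and 4 of them, and none passed. Relative to the control mean, the endothelial median was 0.33, 1.46 and 0.295 at 48 h, against 0.37 in control replicate 3. The pericyte median was 0.31, 1.36 and 0.205, against 0.305 in that control. The skin median was 0.20, 0.125 and 1.61 at 48 h, and its difference was 0.27 without replicate 3. With the muscle covariate the adipocyte, endothelial, pericyte and skin medians were 0.12, -0.27, -0.53 and 0.57.

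Macrophage genes were also highest in replicate 2. The general macrophage list had a median of 2.30 above the control mean in replicate 2 and of -0.29 and -0.54 in replicates 1 and 3. Its median difference of 0.73 turned to -0.23 without replicate 2 and to -1.41 with the muscle covariate. Genes of alternative activation, a repair-associated state, were higher in all 3 treated tumors, at 1.08, 3.43 and 1.02. Of 15 members 14 were higher and 11 had separate arrays, with a median of 1.74, which was 1.03 without replicate 2 and 0.39 with the muscle covariate. Cd163, the scavenger receptor for haemoglobin, measured 4, 5.09 and 5.18 in controls and 8.62, 10.04 and 7.33 at 48 h, and F13a1, a clotting factor chain made by macrophages, measured 6.54, 5.64 and 7.09 against 8.61, 11.67 and 8.89. Arg1, arginase 1, measured 8.56, 11.94 and 5.52 with controls between 4.85 and 5.45, so replicate 3 barely exceeded them. Hmox1, which degrades haem, measured 14.82, 17.68 and 13.39 with controls at 11.49, 11.58 and 13.66, and overlapped. Arg1 differed by 0.39 and Hmox1 by 0.09 with the muscle covariate, instead of 3.55 and 3.05. In that fit Cd163 differed by 1.49 and F13a1 by 1.00, instead of 3.91 and 3.30.

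**Figure D4:**
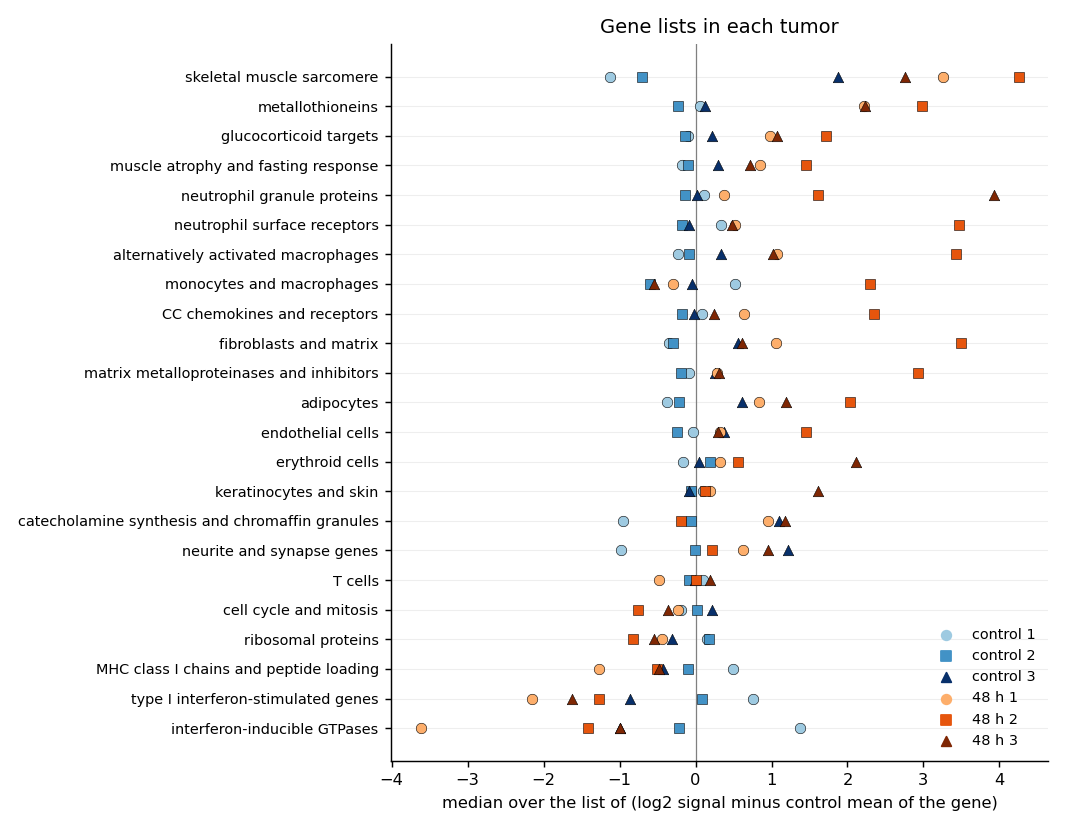
Each row is a gene list and each symbol 1 array, placed at the median over the list of log2 signal minus the control mean of the gene; blue symbols are controls and orange to brown symbols are tumors at 48 h. Replicate 2 (squares) is farthest right for macrophage and matrix lists, replicate 3 (triangles) for granule, erythroid and skin lists, and replicate 1 (circles) farthest left for interferon lists.

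The largest downward differences were in genes for which control replicate 3 was well below the other controls. Dlk1, an imprinted surface protein of immature neuroendocrine and muscle cells, measured 16.45, 15.65 and 10.12 in controls and 7.41, 6.87 and 8.22 at 48 h, a difference of -6.57 ± 1.31 SE (limma, adjusted p = 0.199). Tbx1, a T-box transcription factor, measured 15.18, 14.05 and 8.37 against 7.35, 6.10 and 7.39. Htr3a and Htr3b, the subunits of the serotonin-gated ion channel, measured 18.83, 17.92 and 14.06 against 12.35, 10.90 and 13.25, and 13.56, 12.75 and 7.19 against 6.13, 5.60 and 6.77. In each, controls 1 and 2 stood together and control 3 stood near the treated tumors.

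The same arrangement held for the other members of the 10 largest, which were Nnat (-5.25), Optc (-5.22), Pipox (-5.21), Epha7 (-4.92), Tmem54 (-4.81) and Igfbp2 (-4.78). Igfbp2, a binding protein for insulin-like growth factors, measured 16.94, 15.56 and 10.30 in controls and 9.63, 9.38 and 9.46 at 48 h. Without control replicate 3, all 10 passed as lower, with Dlk1 at -8.55 (limma, adjusted p = 0.000245) and Pipox at -7.06 (adjusted p = 3.67e-05). Without control replicate 1 none of the 10 passed and each difference was smaller, with Dlk1 at -5.39 and Igfbp2 at -3.44 (limma, adjusted p = 0.73 for both), and without control replicate 2 none passed either, with Dlk1 at -5.79 (adjusted p = 0.601). Under the muscle covariate Dlk1 was at -3.43, Epha7 at -1.76 and Htr3b at -1.35 (adjusted p = 0.989 for each). Among 432 probe sets that were lower at least 2-fold at an unadjusted p under 0.01 with separate arrays, control replicate 3 was nearer to the treated mean than to the mean of the other controls in 175 (40.5%). Among 213 such probe sets that were higher it was so in 41 (19.2%).

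In several other lower genes the 3 controls lay together. Myc, the growth-promoting transcription factor, measured 17, 16.92 and 16.68 in controls and 14.96, 14.51 and 15.41 at 48 h, a difference of -1.91 ± 0.55 SE (limma, adjusted p = 0.228). Kctd17, an adaptor for ubiquitin ligases, measured 10.30, 10.41 and 10.13 against 8.28, 8.49 and 8.44, and the transcription factor Klf7 measured 12.64, 12.62 and 12.55 against 11.60, 11.56 and 11.57. The groups of these 3 genes did not overlap. In the fit with the muscle covariate Myc differed by -0.64, Kctd17 by -1.36 and Klf7 by -0.10, instead of -1.91, -1.88 and -1.03. Egr1, an immediate-early factor, measured 13.62, 14.18 and 13.64 against 12.04, 12.04 and 12.92, and its difference of -1.48 was -0.42 with the covariate. Cd72, a B-cell coreceptor, measured 14.66, 11.72 and 11.77 against 7.06, 9.43 and 8.27, with control replicate 1 well above the other controls. The median of the 13 B-cell genes was 0.26 and 8 of them were higher, but with the muscle covariate the median was -0.31.

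**Figure D5:**
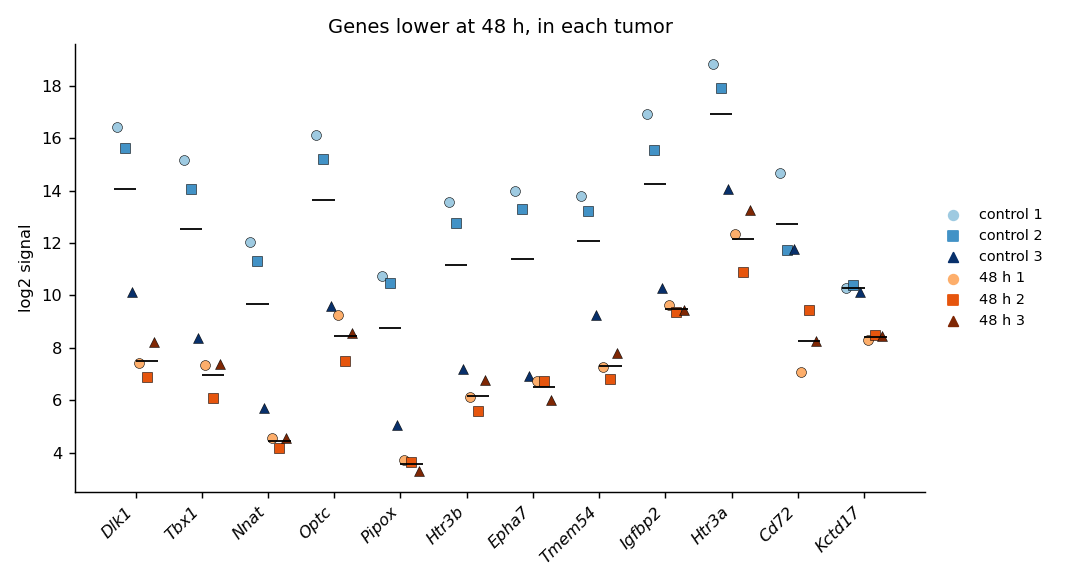
Log2 signals of the 10 genes with the largest downward differences, and of Cd72 and Kctd17, on 3 control (blue) and 3 treated arrays (orange to brown), with group means as bars. For Dlk1 through Htr3a control replicate 3 (dark triangle) sits near the treated tumors (Dlk1 at 10.12 against 16.45 and 15.65), whereas for Kctd17 the controls lie within 10.13 and 10.41.

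Genes of the neuronal phenotype of the tumor varied as much among controls as between groups. Dbh measured 11.99, 14.13 and 16.11 in controls and 15.18, 14.19 and 16.46 at 48 h, and the growth cone protein Stmn2 measured 12.62, 14.79 and 16.63 against 15.98, 15.35 and 16.64. Control replicate 1 was lowest and control replicate 3 as high as the treated tumors in both. Of 16 catecholamine and chromaffin granule genes 13 were higher and 1 had separate arrays, and of 19 neurite and synapse genes 14 were higher and 2 were separate. Their medians of 0.47 and 0.50 became 0.01 and 0.15 without control replicate 1 and 0.92 and 1.02 without control replicate 3. Both were larger with the muscle covariate, at 0.77 and 0.85. Of 15 regulators of the adrenergic state 10 were lower, 5 with separate arrays, and 5 higher, 1 with separate arrays. Their median was -0.23, or 0.26 with the muscle covariate. Gata2, the member with the most negative difference, was lower on all treated arrays, at 13.04, 12.98 and 12.30 against 10.99, 9.35 and 11.21. Its difference of -2.26 turned to 0.21 with the muscle covariate. Mycn, the oncogene of aggressive neuroblastoma, measured 5.48, 6.56 and 7.24 in controls and 7.28, 6.18 and 6.46 at 48 h.

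Genes of growth and division were lower by small amounts. Of 20 cell cycle genes 17 were lower and 7 had separate arrays, with a median of -0.51, which was -0.31 without 48 h replicate 2. Aurkb, a kinase of chromosome segregation, measured 11.52, 11.42 and 11.15 in controls and 10.16, 9.79 and 10.73 at 48 h, and the ubiquitin carrier Ube2c measured 13.02, 13.24 and 13.58 against 12.34, 12.08 and 12.38. Mki67, the antigen used to count cycling cells, had overlapping groups, at 15.27, 15.25 and 15.27 against 15.48, 14.75 and 15.39. Of 18 ribosomal protein genes 17 were lower and 11 had separate arrays, with a median of -0.52, which was -0.78 without control replicate 3. Rpl32 measured 17.84, 17.85 and 17.36 against 16.77, 16.78 and 16.68. With the muscle covariate the medians of these lists were 0.02 and -0.0037.

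Genes of low oxygen and sugar use lay on both sides of 0. Of 23 members 14 were lower, 6 with separate arrays, and 9 higher, 3 with separate arrays, and the median was -0.46. That median was -0.09 without 48 h replicate 2, -0.17 without control replicate 3 and -0.91 with the muscle covariate. Aldoc, an aldolase, measured 12.24, 10.04 and 8.35 in controls and 7.31, 6.57 and 6.60 at 48 h, and Ddit4, an inhibitor of mTOR signaling, measured 12.52, 12.30 and 13.17 against 11.44, 10.79 and 10.43. Vegfa, the vessel growth factor, measured 13.05, 13.37 and 12.07 against 11.56, 11.74 and 11.55. Aldoa, the muscle aldolase, was higher at 19.51, 19.51 and 19.18 against 17.56, 18.16 and 19.11, and its difference of 1.12 was 0.02 with the muscle covariate.

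Against the tumors of the other times, 0 probe sets passed for 48 h against 24 h (863 at an unadjusted p under 0.05) and 0 for 48 h against 72 h (1390 at an unadjusted p under 0.05) in the same limma fit. No gene named here was shown to differ between 48 h and the other times.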

How the data were processed

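Each of 12 tumors was measured on 1 Clariom S mouse array (Affymetrix). The authors deposited 1 signal per probe set and array, taken here as log2 because the values run up to 19.93. The submitters' processing notes name Transcriptome Analysis Console 4.0, and how probes were summarized is not given in the sources used here. Values were used without further scaling. Arrays give no read depth, and 3 arrays per group limit the precision.

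Probe sets took their symbols from the platform annotation, updated by gene number through a RefSeq table of GRCm38.p6, with 1 symbol for 19572 of 22206 and none for 2634. Promoter sequences were RefSeq windows of the same assembly, matched by symbol for 15691 genes.

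Groups were compared in limma 3.58.1 under R 4.3.3, by a linear model of group means fitted to all 12 arrays with moderated variances (prior degrees of freedom 3.37). The contrast was 48 h minus control, tested on both sides, and p-values were adjusted by Benjamini-Hochberg over every probe set at a threshold of 0.05. Lists were described by counts and medians, with no test. The members, the lists and the rule for named genes were chosen with earlier results of these data known. The rule takes genes past the threshold, the 15 lowest p and the 10 largest differences in each direction with separate arrays, up to 4 members of each of 54 lists by p, and genes of interest. Named outside it, after their values were seen, were Ngp, Ltf, Mpo, Elane, Camp, Cxcl1, Cxcl2, Csf3, Csf3r, Saa1, Fga, Fgb, Fgg, Tsc22d3, Myh4, Tnni1, Myh7, Oas1a, Ifit1, Isg15, Irf7, Erap1, Arg1, Dbh, Stmn2, Chgb, Ret, Ddc, Mki67, Vegfa and Aldoa.

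Replicate numbers did not pair the arrays, since deviations of same-numbered control and 48 h arrays correlated at -0.18, -0.26 and -0.04. Alternatives were quantile normalization, median centring, a low signal filter, an intensity trend, array weights, only the groups compared, a replicate block, a muscle covariate, only named probe sets, another threshold, and leaving out each array. On simulated data the fit was tested with 200 changed genes.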

Additional observations from a re-analysis of the deposited data

Results flagged for a closer look

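Cxcl1, a chemokine that attracts neutrophils, lay on opposite sides of the control mean at 48 h and at 24 h: 0.29 above it at 24 h and -0.50 relative to it at 48 h, a difference between the times of -0.79. Every 24 h array was above that mean and every 48 h array below it, but the limma test of this difference gave an adjusted p of 0.999.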

How the results depend on the processing

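The count of 1 probe set past the threshold was the same under quantile normalization, median centring, the low signal filter, the intensity trend with robust estimation and the restriction to probe sets with a symbol. It was 944 with array weights (312 higher, 632 lower), 6 when only the control and 48 h arrays were fitted, 0 with the muscle covariate, and 688 at an unadjusted p under 0.01 with a 2-fold change. Leaving out 1 array gave 0 (without control replicate 1 or 2, or 48 h replicate 2 or 3) to 312 (without control replicate 3), with 2 and 10 without 72 h replicates 1 and 2. The replicate block left 0 calls, with Lcn2 at 8.09 (limma, adjusted p = 0.0683). Whether same-numbered arrays are paired is not given in the labels. With the muscle covariate Lcn2 was at 6.39 (limma, adjusted p = 0.107), and over all other alternatives its adjusted p was between 0.000286 and 0.0652. The causes were not tested.

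Of the 92 genes named, the following changed direction, none of them past the threshold. With the muscle covariate the differences were 0.26 for Ret, 0.37 for Cxcl1, -0.063 for Col3a1, 0.21 for Gata2 and 0.26 for Mki67, which was also 0.17 under quantile normalization and 0.022 with array weights. Leaving out 1 array gave -0.36 to 1.26 for Th, -0.36 to 0.66 for Ddc, -0.27 to 0.60 for Tnni1, -1.66 to 0.43 for Cd274, -0.26 to 0.62 for Mycn and -0.19 to 0.17 for Mki67. Signals near the floor of the array, as for lymphocyte genes, limit what could be seen.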
